A study of Mus musculus with 6 samples.

Results

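The genes described here encode the machinery of autophagy, and they were read from RNA sequencing of B16, a pigmented melanoma line of the mouse. The members were the rows of the deposited gene table whose symbol begins with Atg and a number, Map1lc3 or Gabarap, or is 1 of 13 further symbols (Ulk1, Ulk2, Becn1, Uvrag, Pik3c3, Pik3r4, Ambra1, Rb1cc1, Wipi1, Wipi2, Sqstm1, Nbr1 and Optn). This found 35 of the 22740 protein-coding genes in the table, and all 35 passed the filter on low counts, so none was left out of the test. The rule uses gene symbols and no measured value, but it was written with earlier results of these data known. All 6 samples were B16 cells with the genotype label BRAFV600E-negative, and the design text of the series calls the line B16-F10. The control group of 3 samples was kept for 3 days with the solvent DMSO, and the treated group of 3 samples for 3 days with 1 uM CX-5461, a compound that blocks transcription of ribosomal RNA by RNA polymerase I. The labels do not say whether the 3 samples of a group were separate cultures, so the p-values measure the spread between these samples, which may be technical. A single line was treated, so the results describe that line.

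Macroautophagy is the process in which a cell encloses part of its own cytoplasm in a double membrane, the autophagosome, and delivers it to the lysosome to be broken down. The ULK1 kinase complex starts it, a lipid kinase complex around Pik3c3 marks the site with the lipid PI3P, and effectors of PI3P and lipid-transfer proteins let the membrane grow. A pair of ubiquitin-like conjugation reactions then attaches ATG8 proteins, the LC3 and GABARAP family, to the membrane, where cargo receptors such as p62 bind them. Pigment cells share parts of this machinery with the lysosome-related organelles in which they store melanin. Transcript levels do not show the rate of autophagy, which is set mainly by phosphorylation, lipid conjugation and turnover of these proteins.

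The 6 libraries had totals of 17573990 to 22908309 counts. Levels are given as CPM, the usual scaling of a gene's counts by its library's total, and 3 counts were 0.131 to 0.171 CPM. DMSO and CX-5461 libraries separated along the first principal component, with 91.2% of the variance of log2 CPM. CX-5461 replicate 2 stood apart from replicates 1 and 3 of its group on the second component, at -15.5 against 8.49 and 6.91, which held 2.83% of the variance. The spread within the groups was unequal. Pairs of DMSO libraries differed by a chi-square of 1.57 to 2.54 per degree of freedom over the tested genes, and pairs of CX-5461 libraries by 5.65 to 9.39. Counting error alone would give about 1. The test used a single spread per gene for both groups. All 7 melanocyte markers examined (Mitf, Tyr, Tyrp1, Dct, Pmel, Mlana and Sox10) were present, and together they held 22078 to 22929 CPM with DMSO and 28253 to 30557 CPM with CX-5461. The 11 markers of leukocytes, endothelium, epithelium and fibroblasts held 12.8 to 16.7 and 31.1 to 34.7 CPM in sum. Of these, 3 (Cd3e, Cdh5 and Krt5) had no count in any library, and the 3 fibroblast genes that held most of the sum went different ways: Col1a2 from 2.22 to 25.1 CPM, Col1a1 from 6.94 to 2.81 CPM and Pdgfra from 5.80 to 4.51 CPM. Their part in the results below was not tested.

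CX-5461 lowered more of the autophagy genes than it raised, and the changes were mostly small. Of the 35 members, 17 fell, 8 rose and 10 did not pass at an adjusted p below 0.05 (edgeR's quasi-likelihood test, Benjamini-Hochberg over all 12198 tested genes). So wide a change was general in these cells. Of all tested genes 73.7% were called, 36.5% as lower and 37.2% as higher, beside 71.4%, 48.6% and 22.9% of the members. The share of members that changed was thus close to that of all genes, and nothing particular to autophagy can be read from it. The median log2 change was -0.12 over the members and -0.005 over all tested genes. The groups did not overlap for 27 members, 18 of them lower and 9 higher with CX-5461. The same was true of 76.2% of all tested genes, 37.9% lower and 38.2% higher. Only 6 members passed a test against a change of 1.5-fold: Uvrag, Atg7 and Atg10 as higher, and Rb1cc1, Atg16l2 and Sqstm1 as lower. Of all tested genes 23.0% passed that test, 15.4% as higher and 7.62% as lower. The genes that moved most belonged to different steps. The largest rises were in the lipid kinase complex and the conjugation enzymes. The largest falls were in the kinase scaffold, in Atg16l2 and in the cargo receptor p62. Atg16l1, the paralog that places the ATG12 conjugate on the membrane, did not pass. A bulk measurement cannot tell less RNA per cell from fewer cells with that RNA.

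**Figure D1:**
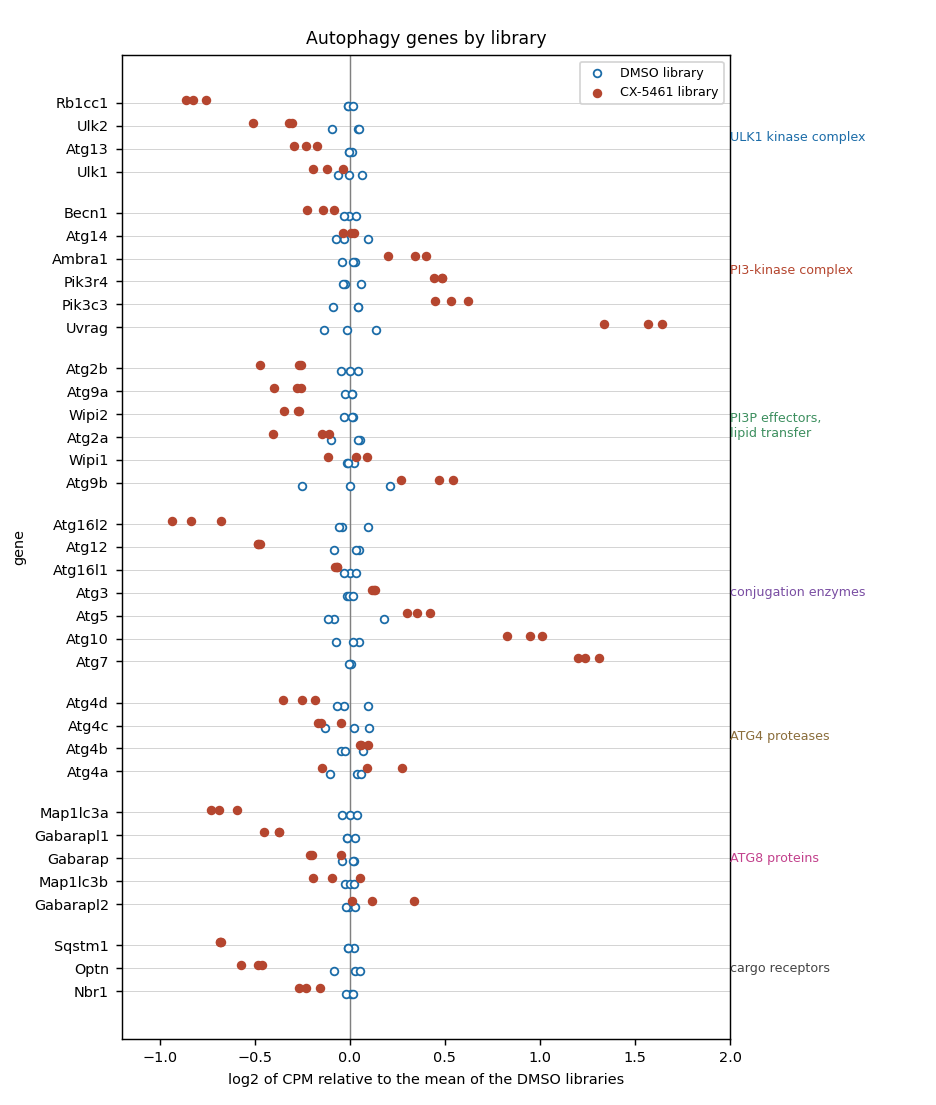
Each row is 1 autophagy gene and each point 1 library, placed by the log2 of its CPM relative to the mean of the 3 DMSO libraries (open blue, DMSO; filled red, CX-5461), with the genes grouped by role. Uvrag, Atg7 and Atg10 lie furthest to the right and Rb1cc1, Atg16l2, Sqstm1 and Map1lc3a furthest to the left, with no overlap between the groups.

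The ULK1 kinase complex receives the nutrient and energy signals that start autophagy. Of its 4 members in the list, 3 fell, none rose and 1 did not pass. Their median log2 change was -0.30, and of all tested genes 36.5% fell and 37.2% rose. Rb1cc1 encodes FIP200, the large scaffold that holds the complex together (chromosome 1, 6206197 to 6276648, plus strand, GRCm38). It was at 78.1, 77.8 and 79.5 CPM in DMSO replicates 1 to 3, and at 46.4, 44.4 and 43.1 CPM in CX-5461 replicates 1 to 3. The CX-5461 libraries were all far below the DMSO libraries, and Rb1cc1 fell 1.76-fold, by 0.81 ± 0.05 (log2, SE, n = 3 per group; edgeR adjusted p = 1.43e-09), the largest fall of the 35. An annotated processed copy of Rb1cc1 shares 95.6% identity over 1324 bases, so a part of its reads could be placed there or taken from it. Ulk2, 1 of the 2 related kinases, fell from 81.2 ± 4.52 to 62.7 ± 4.81 CPM (SD, n = 3), a log2 change of -0.37 ± 0.06. Atg13, the adaptor that binds the kinase to the scaffold, fell from 122 ± 0.724 to 104 ± 4.20 CPM, a log2 change of -0.23 ± 0.05. The other kinase, Ulk1, was at 65.8 ± 2.96 and 60.8 ± 3.30 CPM and its groups overlapped (edgeR adjusted p = 0.0863). It passed as lower with library totals as the only scaling (adjusted p = 0.00853), with a GC offset (0.0265) and without CX-5461 replicate 1 (0.0258). The remaining subunit, ATG101, stands in the deposited table under the clone name 9430023L20Rik, outside the rule. It was at 54.5 ± 3.34 and 56.3 ± 3.45 CPM (edgeR adjusted p = 0.521).

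The lipid kinase complex makes PI3P, and its members went mostly the other way. Of 6 members, 4 rose, 1 fell and 1 did not pass. Their median log2 change was 0.39, and of all tested genes 37.2% rose and 36.5% fell. Some of these genes are long, and long genes rose more often in all the data, as described below. An offset that takes off a smooth curve of each library's trend with the rank of genomic span was therefore also fitted. Such a curve need not match the median of every span class, so the changes it leaves for single long genes are uncertain. With this gene-span offset 3 of the 6 rose, 1 fell and 2 did not pass, where 36.0% of all tested genes rose and 37.2% fell. Uvrag, which joins the complex that acts in autophagosome maturation and endosome transport, showed the largest rise of the 35 (chromosome 7, 98885021 to 99141141, minus strand). It was at 36.3, 32.7 and 30.1 CPM with DMSO and at 103, 83.4 and 98.0 CPM with CX-5461. Replicate 2 was the lowest of the CX-5461 libraries, yet well above every DMSO library. Uvrag rose by 1.52 ± 0.08 (log2, SE; edgeR adjusted p = 1.58e-10), or 2.88-fold. Under the gene-span offset Uvrag was 1.65-fold higher (edgeR adjusted p = 4.68e-08). An antisense transcript, Gm45187, overlaps 17.6% of the exonic length of Uvrag, and reads there may belong to either. Short stretches of Uvrag also match other transcripts, among them Mettl6 (95.1% identity over 345 bases) and Tsc2 (95.6% over 226 bases). A part of its reads could be placed there or taken from them. The catalytic subunit Pik3c3, also called VPS34, rose 1.45-fold, from 39.1 ± 2.00 to 56.7 ± 3.43 CPM, and its regulatory partner Pik3r4, or VPS15, rose 1.38-fold, from 58.0 ± 2.20 to 80.2 ± 1.35 CPM (edgeR adjusted p = 1.67e-06 and 6.02e-07). These partners thus rose by a like amount, with log2 changes of 0.53 ± 0.06 and 0.47 ± 0.05. Ambra1, which links the complex to its regulators, rose from 58.8 ± 1.52 to 73.3 ± 5.13 CPM, a log2 change of 0.32 ± 0.06. The gene-span offset turned this direction, and Ambra1 then passed as lower, at -0.38 (edgeR adjusted p = 3.94e-06). Its change without the offset equalled the median of all tested genes of 100 to 200 kb (0.32), so its call as lower depends on how the curve was drawn. Becn1, the beclin 1 subunit, fell slightly, from 258 ± 5.74 to 232 ± 11.5 CPM, a log2 change of -0.15 ± 0.05 (edgeR adjusted p = 0.00845), which did not pass with the gene-span offset (adjusted p = 0.230). Atg14, the subunit that directs the complex to the forming autophagosome, was at 22.1 ± 1.37 and 22.0 ± 0.423 CPM (edgeR adjusted p = 0.995). Exons of Becn1 overlap those of Cntd1 on the opposite strand over 43.9% of their length, and Cntd1 itself held 1.73 and 1.46 CPM.

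Of the 6 PI3P effectors and lipid-transfer genes, 4 fell, none rose and 2 did not pass. Their median log2 change was -0.25, and of all tested genes 36.5% fell and 37.2% rose. Atg2b, a lipid-transfer protein that feeds the growing membrane, was at 137, 141 and 132 CPM with DMSO and at 115, 98.4 and 114 CPM with CX-5461. The groups did not overlap, replicate 2 was again the lowest treated library, and Atg2b fell by 0.33 ± 0.06 (log2, SE; edgeR adjusted p = 0.000105). Atg9a, the scramblase that spreads the delivered lipid between both leaflets, fell from 138 ± 1.98 to 112 ± 5.90 CPM. Wipi2, which reads PI3P and recruits the conjugation platform, fell from 205 ± 3.62 to 167 ± 5.30 CPM. These were changes of -0.31 ± 0.05 and -0.29 ± 0.04 on the log2 scale, much like that of Atg2b. Atg2a, the paralog of Atg2b, fell by 0.21 ± 0.07 (log2; edgeR adjusted p = 0.0129). That call was lost without DMSO replicate 1 (adjusted p = 0.0566), without DMSO replicate 2 (0.0541) and with the gene-span offset (0.136). Wipi1 was at 77.1 ± 1.05 and 77.4 ± 5.54 CPM (edgeR adjusted p = 0.922), and the scarce Atg9b at 1.49 ± 0.237 and 2.02 ± 0.192 CPM (edgeR adjusted p = 0.0826). Atg9b passed as higher with the gene-span offset (0.0451). A same-strand transcript, Gm29253, covers 31.8% of the exonic length of Atg9a, so the level of Atg9a is uncertain. Stretches of Atg2b match other transcripts, the longest being 984 bases of Gm42577 at 95.5% identity, so a part of its reads could be misplaced.

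The conjugation enzymes held both the strongest rises after Uvrag and one of the strongest falls. Of 7 members, 4 rose, 2 fell and 1 did not pass (median log2 change 0.13). Among all tested genes 37.2% rose and 36.5% fell. With the gene-span offset 2 members rose, 2 fell and 3 did not pass, where 36.0% of all tested genes rose and 37.2% fell. Atg7, the E1-like enzyme that activates both ATG12 and the ATG8 proteins (chromosome 6, 114643097 to 114860614, plus strand), was at 21.8, 21.9 and 21.7 CPM with DMSO. It was at 51.3, 54.0 and 50.1 CPM with CX-5461. The replicates of each group lay close together, and Atg7 rose 2.37-fold, by 1.25 ± 0.06 (log2, SE; edgeR adjusted p = 7.43e-11). Under that offset it rose 1.41-fold (edgeR adjusted p = 5.01e-06). Atg10, the E2-like enzyme for ATG12 (chromosome 13, 90935356 to 91223968, minus strand), was scarce, at 5.25, 4.83 and 5.14 CPM with DMSO. With CX-5461 it was at 9.01, 9.78 and 10.2 CPM, above every DMSO library. Its rise was 1.91-fold (log2 change 0.93 ± 0.11; edgeR adjusted p = 2.65e-06), but 1.07-fold with the gene-span offset, which did not pass (adjusted p = 0.481). Atg5, which ATG12 is joined to, rose from 23.7 ± 2.72 to 30.3 ± 1.29 CPM, a log2 change of 0.36 ± 0.08, and it too did not pass with that offset (0.12; edgeR adjusted p = 0.215). Atg3, the E2-like enzyme for the ATG8 proteins, rose from 76.2 ± 0.844 to 83.1 ± 0.372 CPM, a log2 change of only 0.13 ± 0.05 (edgeR adjusted p = 0.0229). That small rise did not pass without DMSO replicate 1 (adjusted p = 0.0906), DMSO replicate 2 (0.0889) or CX-5461 replicate 3 (0.0590), nor with library totals only (0.317), no filter (0.0818) or DESeq2 (0.0519).

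Whereas these enzymes rose, Atg12 and Atg16l2 fell. Atg12, the ubiquitin-like protein itself, fell from 65.0 ± 3.19 to 46.6 ± 0.164 CPM, a log2 change of -0.48 ± 0.05 (edgeR adjusted p = 1.08e-06). Atg16l2 is a paralog of Atg16l1, the protein that places the conjugate on the membrane (chromosome 7, 101263034 to 101302251, minus strand). It was at 31.5, 34.7 and 31.2 CPM with DMSO and at 20.3, 17.0 and 18.2 CPM with CX-5461. The groups stood well apart, and Atg16l2 fell 1.75-fold (log2 change -0.81 ± 0.08; edgeR adjusted p = 2.49e-07). Atg16l1 was at 54.9 ± 1.26 and 52.2 ± 0.275 CPM, and that difference did not pass (edgeR adjusted p = 0.219), though its groups did not overlap. It passed as lower with library totals (0.0202) and with the GC offset (0.0395).

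Promoter sequences are shown for the 3 conjugation enzymes that hold an E-box, and for Uvrag and Sqstm1, which are among the genes that moved most. The E-box CACGTG is the core of the sites bound by MITF, TFEB and TFE3, transcription factors known to act on autophagy and lysosome genes. The sequences are the 250 bases before each RefSeq transcript start (GRCm38.p6), 5′ to 3′ on the strand of the gene, with each E-box in capitals.
Atg7 (chr6:114670846-114671095, plus strand): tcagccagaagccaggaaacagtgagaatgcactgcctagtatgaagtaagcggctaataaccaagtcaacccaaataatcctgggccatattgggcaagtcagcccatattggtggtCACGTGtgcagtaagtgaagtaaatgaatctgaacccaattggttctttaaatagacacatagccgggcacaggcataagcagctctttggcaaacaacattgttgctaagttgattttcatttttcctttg
Atg5 (chr10:44268089-44268338, plus strand): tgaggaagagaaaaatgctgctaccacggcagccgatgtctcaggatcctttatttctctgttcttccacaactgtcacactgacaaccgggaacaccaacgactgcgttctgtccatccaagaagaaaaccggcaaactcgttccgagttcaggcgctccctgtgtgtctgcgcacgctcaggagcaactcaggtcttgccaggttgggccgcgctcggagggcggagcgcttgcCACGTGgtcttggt
Atg3 (chr16:45158579-45158828, plus strand): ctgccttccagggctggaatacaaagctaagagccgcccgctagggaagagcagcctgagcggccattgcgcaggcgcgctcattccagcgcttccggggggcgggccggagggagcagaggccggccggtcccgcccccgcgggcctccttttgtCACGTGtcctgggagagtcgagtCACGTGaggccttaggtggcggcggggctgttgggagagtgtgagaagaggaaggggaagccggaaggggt
Uvrag (chr7:99141145-99141394, minus strand): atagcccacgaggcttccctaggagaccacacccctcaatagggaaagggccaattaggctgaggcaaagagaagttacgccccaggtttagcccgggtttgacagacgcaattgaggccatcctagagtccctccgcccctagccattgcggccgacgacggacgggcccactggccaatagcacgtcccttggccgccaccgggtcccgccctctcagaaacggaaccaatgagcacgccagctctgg
Sqstm1 (chr11:50210821-50211070, minus strand): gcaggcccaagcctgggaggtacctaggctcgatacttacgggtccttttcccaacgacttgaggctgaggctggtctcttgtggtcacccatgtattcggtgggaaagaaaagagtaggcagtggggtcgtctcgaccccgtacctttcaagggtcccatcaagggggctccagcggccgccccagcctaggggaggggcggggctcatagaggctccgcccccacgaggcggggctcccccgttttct

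In the Atg7 window the E-box began 132 bases before the RefSeq start, which lies 28 kb inside the gene as GENCODE draws it, and in the Atg5 window 14 bases before the start. Atg3 had 2 of them, 94 and 71 bases before the start. Neither the Uvrag nor the Sqstm1 window held those letters. RefSeq promoters were at hand for 29 of the 35 members, 32 windows in all, and not for Atg12, Atg16l1, Becn1, Map1lc3a, Pik3c3 and Rb1cc1. An E-box stood in 3 of the 32 windows (9.38%), against 8.4% of 11733 windows of tested genes and 6.02% of all 32851 windows. The motif TGACNNNGC, the core of the element read by NRF2, stood in the windows of Atg13 and Ulk2 (6.25% of member windows, 11.7% of windows of tested genes). CATGTG, another letter order of the E-box, stood in those of Atg2a and Atg9b (6.25% and 7.14%). The ATF4 element TGATGNAA and the longer CLEAR motif, which contains the E-box, were in none of them (1.99% and 0.554% of windows of tested genes). Both strands were searched. The shares in member windows were close to or below those in windows of all tested genes.

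ATG4 proteases trim the ATG8 proteins before conjugation and later free them from the membrane. Of the 4, 1 fell, none rose and 3 did not pass (median log2 change -0.03). Among all tested genes 36.5% fell and 37.2% rose. Atg4d was at 36.9, 40.3 and 36.1 CPM with DMSO and at 31.7, 33.3 and 29.6 CPM with CX-5461, without overlap. It fell by 0.26 ± 0.07 (log2, SE; edgeR adjusted p = 0.00285). The opposite-strand gene Kri1, which overlaps 19.3% of the exonic length of Atg4d, fell as well, from 81.0 to 57.1 CPM. Whether strand was used in counting is not given in the sources used here, so reads in the shared stretch may belong to either gene. Atg4b, the protease that acts on most ATG8 proteins, was at 69.7 ± 3.00 and 73.2 ± 1.23 CPM, Atg4c at 22.0 ± 1.78 and 20.2 ± 0.924 CPM, and Atg4a at 10.1 ± 0.616 and 10.7 ± 1.55 CPM. All 3 overlapped between groups (edgeR adjusted p = 0.220, 0.190 and 0.468). Atg4a passed as lower with the gene-span offset, at -0.64 (edgeR adjusted p = 5.87e-05), Atg4b as higher with it (0.0449) and Atg4c as lower with library totals (0.0426). Atg4a has an annotated copy with 99.3% identity over 2115 bases, so its level is uncertain.

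The ATG8 proteins coat the membrane and bind cargo, and the transcripts of this family were lower in sum with CX-5461. Of the 5 genes, 3 fell, none rose and 2 did not pass. Their median log2 change was -0.15, and of all tested genes 36.5% fell and 37.2% rose. Map1lc3a, which encodes LC3A (chromosome 2, 155276297 to 155278073, plus strand), was at 78.6, 80.8 and 82.9 CPM with DMSO and at 50.2, 53.4 and 48.7 CPM with CX-5461. The groups were far apart, and Map1lc3a fell 1.59-fold, by 0.67 ± 0.05 (log2, SE; edgeR adjusted p = 1.85e-08). Gabarapl1, the most abundant of the family, was at 593, 576 and 577 CPM with DMSO and at 449, 449 and 425 CPM with CX-5461. It fell 1.32-fold (log2 change -0.40 ± 0.04; edgeR adjusted p = 4.37e-07), again without overlap. A transcript on the opposite strand, 1700101I11Rik, overlaps 28.3% of the exonic length of Gabarapl1. Gabarap was at 307, 320.3 and 319.7 CPM with DMSO and at 274, 305 and 273 CPM with CX-5461. Its groups parted narrowly, with CX-5461 replicate 2 just below the lowest DMSO library, and it fell by 0.15 ± 0.05 (log2; edgeR adjusted p = 0.0120). That call ended with the gene-span offset (adjusted p = 0.0884) and without DMSO replicate 2 (0.0540). Map1lc3b, whose LC3B protein is the common marker of autophagosomes, was at 176, 179 and 182 CPM with DMSO and at 168, 185 and 156 CPM with CX-5461. The treated libraries lay on both sides of the DMSO range (edgeR adjusted p = 0.239). Without CX-5461 replicate 2, the highest of them, Map1lc3b passed as lower, at -0.14 (adjusted p = 0.0034), and it did so with library totals (0.0212) and the GC offset (0.0395). Gabarapl2, or GATE-16, was at 29.5, 30.1 and 29.1 CPM with DMSO and at 32.1, 37.3 and 29.8 CPM with CX-5461. Its groups overlapped too, with replicate 2 the highest (edgeR adjusted p = 0.0850). It passed as higher with the gene-span offset (0.24; adjusted p = 0.00798) and without CX-5461 replicate 3 (0.22; adjusted p = 0.0221). Map1lc3b and Gabarapl2 have 4 and 3 annotated processed copies with at least 95% identity over 200 bases or more, so their levels are uncertain.

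Together the 5 ATG8 genes held 1187 ± 3.34 CPM in the DMSO group and 979 ± 48.9 CPM after CX-5461 (SD, n = 3). To compare genes, CPM were divided by the kb of exon annotated for each, which counts long and rarely used exons in full. On this scale Gabarapl1 made up 51.2% ± 0.976 of the family with DMSO and 48.4% ± 1.28 with CX-5461, and Gabarap 30.3% ± 0.674 and 34.0% ± 0.928. The share of Map1lc3a went from 12.1% ± 0.292 to 9.49% ± 0.0532, that of Map1lc3b from 4.21% ± 0.0586 to 4.98% ± 0.204, and that of Gabarapl2 from 2.25% ± 0.0407 to 3.13% ± 0.225. The order of the 5 genes was the same in both groups. For each of the 5 shares the groups did not overlap, which is the most that 3 samples against 3 can show (exact permutation test, two-sided, p = 0.1, the smallest possible, and 0.1 after adjustment over the 5). Single genes did not overlap in 76.2% of all tested genes. The shares of a library add up to the whole, so they are not separate results. Gabarap and Map1lc3b gained share while their CPM per kb fell, from 171 to 154 and from 23.8 to 22.6. Gabarapl2 gained in both, from 12.7 to 14.2 CPM per kb.

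**Figure D2:**
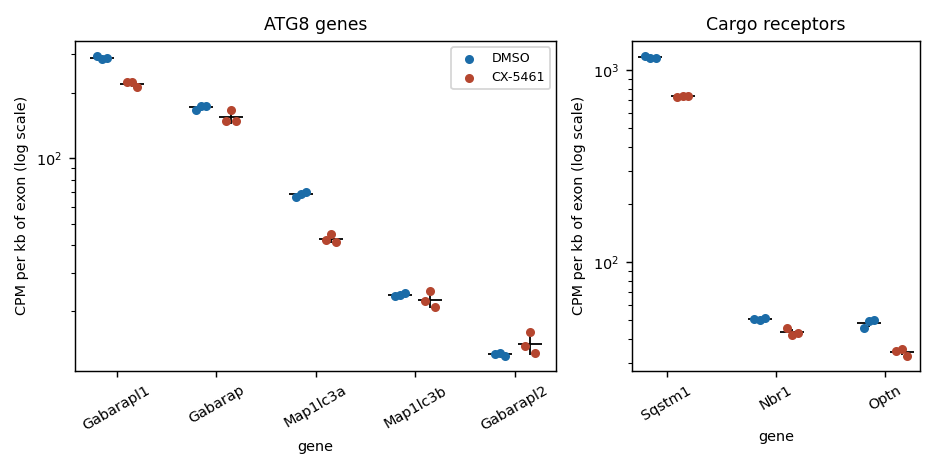
CPM per kb of exon (log scale) of the 5 ATG8 genes (left) and 3 cargo receptors (right) in each DMSO (blue) and CX-5461 (red) library, with bars for the mean and SD of 3 libraries. Sqstm1 stands highest of all, at 1171 with DMSO and 730.3 with CX-5461, and Gabarapl1 leads the ATG8 genes at 289 and 219.

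All 3 cargo receptors fell, with a median log2 change of -0.50, where 36.5% of all tested genes fell and 37.2% rose. Sqstm1 encodes p62, which gathers ubiquitin-tagged proteins and is itself broken down by autophagy, and is also a target of the oxidative-stress factor NRF2 (chromosome 11, 50199366 to 50210827, minus strand). It was by far the most abundant member, at 3987, 3901 and 3897 CPM with DMSO and at 2444, 2459.8 and 2449 CPM with CX-5461. The treated libraries lay close together and far below the others. Sqstm1 fell 1.60-fold, by 0.68 ± 0.04 (log2, SE; edgeR adjusted p = 7.92e-10). Optn, or optineurin, a receptor for damaged mitochondria and bacteria, was at 172, 186 and 189 CPM with DMSO and at 130.4, 132 and 123 CPM with CX-5461. It fell 1.42-fold (log2 change -0.50 ± 0.05; edgeR adjusted p = 2.55e-07), without overlap. Nbr1, the relative of p62 that acts with it on ubiquitin-tagged cargo, was at 349, 343 and 352 CPM with DMSO and at 312, 289 and 296 CPM with CX-5461. Its fall was the smallest of the 3 but also without overlap (log2 change -0.22 ± 0.04; edgeR adjusted p = 0.000311). The opposite-strand gene Mrnip overlaps 17.3% of the exonic length of Sqstm1, and held 10.7 CPM with DMSO.

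Sqstm1 alone held 52.2% ± 0.349 of the summed CPM of the 35 members with DMSO and 43.3% ± 0.302 with CX-5461. The sum itself went from 7525 ± 48.5 to 5658 ± 34.7 CPM. Without Sqstm1 the other 34 members held 3597 ± 9.80 and 3207 ± 35.6 CPM, so most of the drop in the sum was that of Sqstm1. Each of these 3 measures parted the groups completely (exact permutation test, two-sided, p = 0.1, the smallest possible). They share counts and are not separate results, and single genes parted the groups in 76.2% of all tested genes. Per kb of exon, Sqstm1 was followed by Gabarapl1 and Gabarap, at 289 and 171 CPM per kb with DMSO, and Atg9b was lowest at 0.379.

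Several steps are served by paralogs, and the balance between them can be read within each library as the log2 ratio of their CPM, which does not depend on scaling between libraries. All 7 pairs examined parted the groups completely, each with the smallest possible p of the exact permutation test (two-sided, p = 0.1, and 0.1 after adjustment over the 7 pairs). Single genes parted the groups in 76.2% of all tested genes, and no such share was computed for pairs, so the count itself is not read as a result about these pairs. The largest shifts were in Atg16l1 over Atg16l2 and in Atg9a over Atg9b. The log2 ratio of Atg16l1 to Atg16l2 went from 0.76 ± 0.06 to 1.5 ± 0.12 (SD, n = 3), and that of Atg9a to Atg9b from 6.54 ± 0.21 to 5.80 ± 0.18. Atg9b holds few counts, and its own change did not pass. The ratio of Map1lc3a to Map1lc3b went from -1.15 ± 0.01 to -1.74 ± 0.06, and that of Gabarapl1 to Gabarapl2 from 4.30 ± 0.04 to 3.74 ± 0.14. Both ATG8 pairs therefore shifted toward the less changed paralog. Ulk1 over Ulk2 went from -0.30 ± 0.10 to -0.04 ± 0.14 and Wipi1 over Wipi2 from -1.41 ± 0.05 to -1.11 ± 0.06, and the second gene of each pair fell. Atg2a over Atg2b moved least, by 0.11, from -0.65 ± 0.05 to -0.54 ± 0.04.

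**Figure D3:**
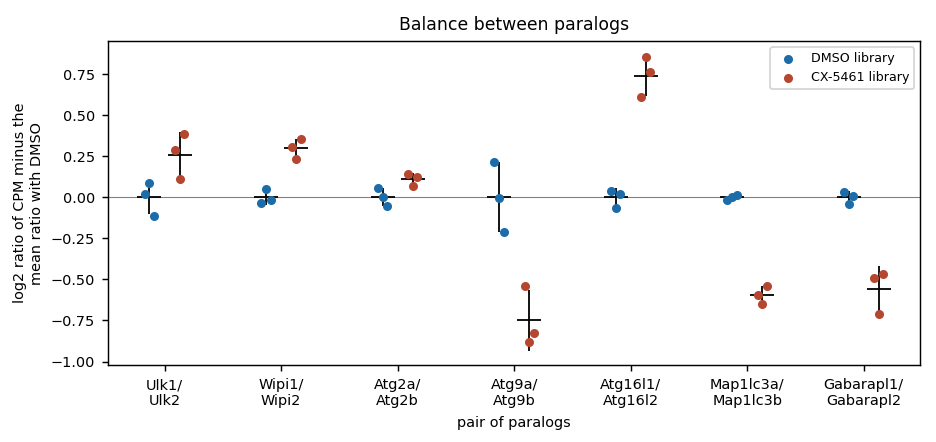
Log2 ratio of the CPM of 2 paralogs in each DMSO (blue) and CX-5461 (red) library, less the mean ratio of the DMSO libraries, with bars for the mean and SD of 3 libraries. The red points lie above the blue ones for Ulk1/Ulk2, Wipi1/Wipi2, Atg2a/Atg2b and Atg16l1/Atg16l2, and below them for Atg9a/Atg9b, Map1lc3a/Map1lc3b and Gabarapl1/Gabarapl2.

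The members with the largest rises, Uvrag, Atg7 and Atg10, were also long genes, a property the choice of members did not use. Their genomic spans, from the first to the last annotated base, were 256, 218 and 289 kb, and the members had a median of 36.6 kb. Ambra1, at 189 kb, rose by 0.32 (log2). Pik3c3, Pik3r4 and Atg5 rose more than that, by 0.53, 0.47 and 0.36, with spans of 75.4, 44.7 and 95.9 kb. Of the 5 members over 100 kb, 4 rose, none fell and 1 (Atg4a, 207 kb) did not pass. Of the other 30, 4 rose, 17 fell and 9 did not pass. The same held for all tested genes, of which 69.6% rose and 11.9% fell over 100 kb, against 32.4% and 40.2% up to 100 kb. Genes of 200 to 400 kb had a median log2 change of 0.97 over all 408 tested and 1.09 over the 4 members (Atg10, Atg4a, Atg7 and Uvrag). Across genes, Spearman's rho between span and log2 change was 0.40 over the 35 members and 0.22 over 12133 tested genes with a span, as a description of genes measured in the same libraries.

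**Figure D4:**
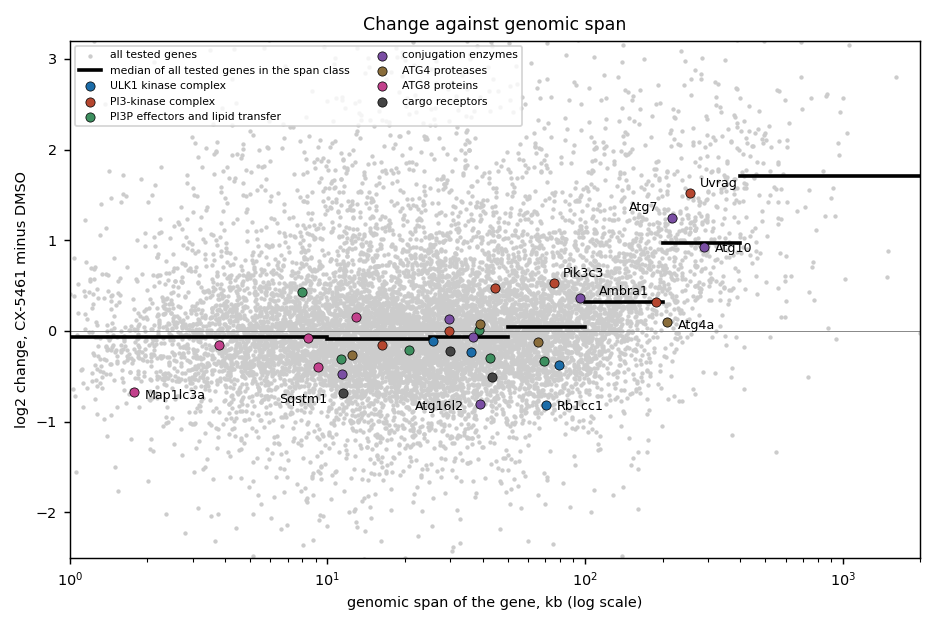
Log2 change (CX-5461 minus DMSO) against genomic span in kb (log scale) for all tested genes (grey), with the median of each span class as a black line and the autophagy genes in the colour of their role. The plotted range leaves out 288 grey points. Uvrag and Atg7 lie above the median line of 0.97 for 200 to 400 kb, Atg10 near it and Atg4a below it, while Rb1cc1, Atg16l2, Sqstm1 and Map1lc3a lie below the line of their class.

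With the gene-span offset the log2 changes of the long members were all lower. That of Atg4a moved away from the median of the members with the offset (-0.12), to -0.64. Uvrag and Atg7 stayed higher, Atg10 no longer passed, and Ambra1 and Atg4a passed as lower. The partners Pik3c3 and Pik3r4 still rose, by 0.43 and 0.50 on the log2 scale, and Rb1cc1 fell by 0.89. Atg3 rose by 0.20 and Nbr1 fell by 0.14. With the offset 8 members rose and 16 fell, where 36.0% of all tested genes rose and 37.2% fell. What makes long genes differ between these groups was not tested.

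**Figure D5:**
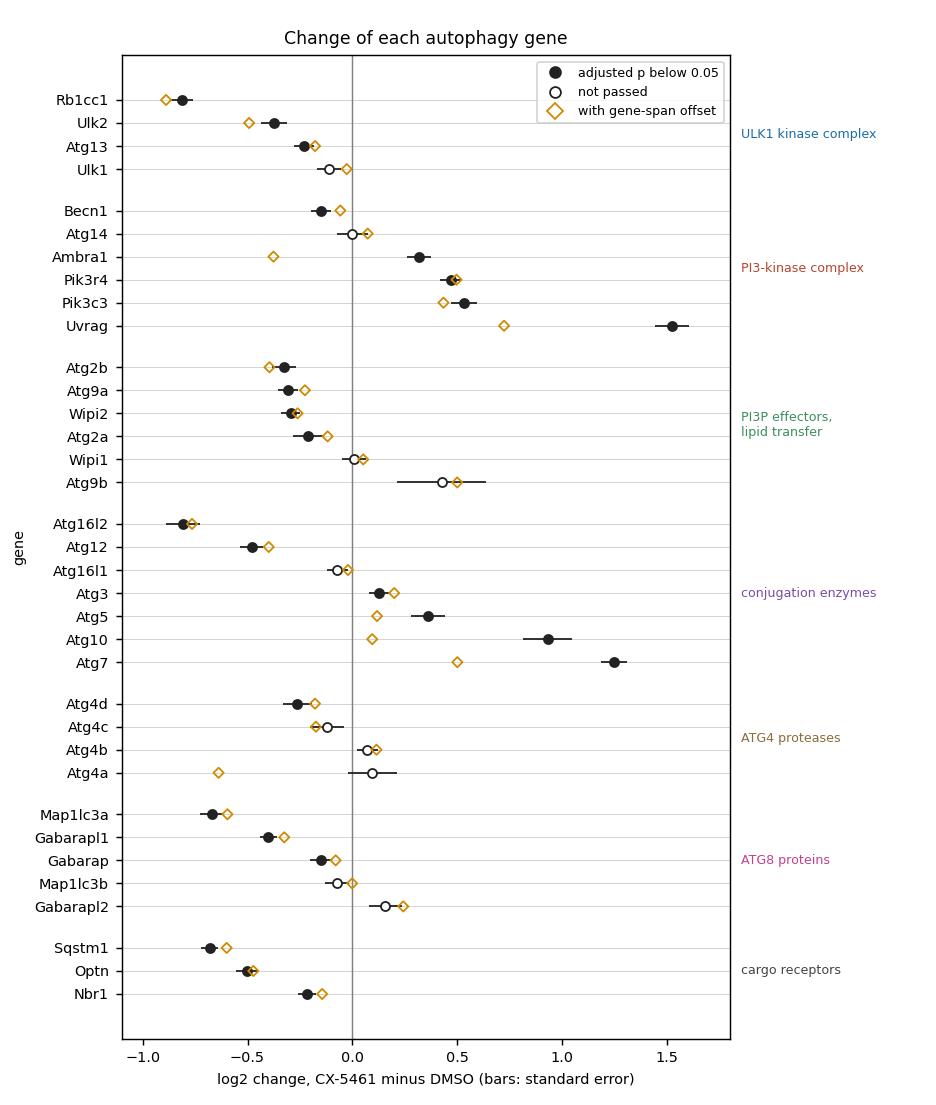
Log2 change of each autophagy gene with its standard error (filled circles, adjusted p below 0.05; open circles, not passed), and the value with the gene-span offset (orange diamonds). The diamonds lie far left of the circles for Uvrag, Atg7, Atg10, Ambra1 and Atg4a, and near them for most other genes.

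The genes around the core machinery were called higher and lower about as often as all tested genes. Of 71 tested genes in 5 lists of related genes, 25 rose, 28 fell and 18 did not pass (median log2 change -0.004), where 37.2% of all tested genes rose and 36.5% fell. With library totals as the only scaling, 18 rose and 34 fell. Of 25 genes of mTORC1 and AMPK, the nutrient and energy sensors that act on the ULK1 complex, 10 rose, 8 fell and 7 did not pass. Rptor, the mTORC1 subunit that recruits substrates, rose by 1.28 ± 0.07 (log2), or by 0.43 with the gene-span offset, and Prkab2, a beta subunit of AMPK, fell from 40.2 ± 1.58 to 15.5 ± 0.297 CPM. Of 11 other factors of the early membrane, 3 rose, 6 fell and 2 did not pass. Zfyve1, or DFCP1, which marks the site where the membrane forms, rose by 0.34 ± 0.04, and Sh3glb1, a membrane-bending partner of Uvrag, fell by 0.36 ± 0.05.

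Of 15 genes of fusion with the lysosome, 7 rose, 6 fell and 2 did not pass. Among all tested genes 37.2% rose and 36.5% fell. Vps41, of the HOPS tethering complex, rose by 0.92 ± 0.05 (0.34 with the gene-span offset), and Epg5, a tether of autophagosomes to late endosomes, fell by 0.60 ± 0.06. Of 14 other receptors of selective autophagy, 2 rose, 6 fell and 6 did not pass. Stbd1, a glycogen receptor, fell from 8.03 ± 0.113 to 1.95 ± 0.136 CPM, and the mitochondrial receptor Bnip3, which is also induced by hypoxia, from 124 ± 10.7 to 58.8 ± 12.0 CPM.

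Of 6 tested MiT/TFE and FOXO factors, which switch on autophagy and lysosome genes, 3 rose, 2 fell and 1 did not pass. Among all tested genes 37.2% rose and 36.5% fell. Mitf rose by 2.18 ± 0.05 (log2; 1.44 with the gene-span offset), Tfe3 fell by 0.69 ± 0.04, from 172 ± 1.47 to 107 ± 0.874 CPM, and Tfeb was at 20.9 ± 2.24 and 21.5 ± 0.866 CPM (edgeR adjusted p = 0.662). The related factors thus went in different directions.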

How the data were processed

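RNA of 6 B16 samples, 3 per group by their titles, was measured by sequencing. The authors deposited whole-number counts of reads per gene, not normalized, for 22740 protein-coding genes. The submitters' processing notes name GRCm38 and mm10. How reads were aligned and counted, with which strand setting, is not given in the sources used here. The members and lists were chosen with earlier results of these data known. Genes were kept by filterByExpr (minimum count 10), which left 12198. In R 4.3.3, edgeR 4.0.16 gave the quasi-likelihood F test, with TMM factors (0.970 to 1.03) and treatment as the only term, two-sided, on all 6 libraries, with Benjamini-Hochberg adjustment and calls below 0.05. Standard errors are the log2 change over the square root of F. CPM use TMM-scaled totals. A gene with no count has a floor of 3 counts, which covers counting error only. GENCODE M21 (GRCm38) gave positions, spans and exonic lengths and matched 21919 identifiers. Copies were found with blastn. The offsets for span and GC are a lowess of each library's deviation from the gene mean. Tested on simulated counts of 12198 genes for this comparison, with 50 genes changed at each size, the test recovered 35 at 1.3-fold, 44 at 1.5-fold, 49 at 2-fold and 50 at 4-fold, with 4 false among 182 calls. Far fewer genes changed in the simulation than in the data, where 73.7% were called. Its groups also had the same spread, so these rates need not hold for the data. Every member is named. Values per library are given for the called members with the 3 largest rises and falls, the largest change in each role, all ATG8 genes and all cargo receptors. Of each related list the 2 called genes with the largest change at 5 CPM or more are named, and Mitf, Tfeb and Tfe3 always. Alternatives were library totals, upper-quartile and RLE factors, no filter, 1 CPM in 3 libraries, DESeq2 1.42.0, limma-voom (limma 3.58.1), the replicate number as a block, span and GC offsets with and without it, an adjusted p below 0.01, a test against 1.5-fold (glmTreat), each library left out, and, for paralog ratios, a pseudocount of 1 CPM.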

Additional observations from a re-analysis of the deposited data

How the results depend on the processing

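Under the test against 1.5-fold the members called were 3 higher and 3 lower in place of 8 and 17, all genes 1880 and 929 in place of 4538 and 4448, and related genes 3 and 4 in place of 25 and 28. The other alternatives kept these counts within 1.5 times. With 1 library left out, members ran from 7 to 8 higher and 15 to 18 lower, all genes from 4234 to 4600 and 4084 to 4608, and related genes from 22 to 26 and 25 to 30. Of the 25 called members, 18 kept their call under every alternative but the 1.5-fold test, and 5 (Atg16l2, Atg7, Rb1cc1, Sqstm1 and Uvrag) under all 20. Of the 10 members not called, 8 passed under at least 1 alternative, and Atg14 and Wipi1 under none. The paralog differences kept their sign in every alternative tried. Medians of the role groups, all members and all genes moved beyond the SD of the CX-5461 libraries in 42 cases and not in 138. With library totals the median log2 change was -0.20 over all members and -0.08 over all tested genes. The lipid kinase median was 0.25 with the gene-span offset, and the ATG4 median was 0.01 without DMSO replicate 1.

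Signs of single members turned as follows. Ambra1 was at -0.3764 with the gene-span offset and -0.3775 with the replicate block added. Atg4a was at -0.6381 with that offset and -0.6491 with the block added, and ran from -0.0214 (without CX-5461 replicate 1) to 0.1885 with 1 library left out. Atg4b was at -0.0029 with library totals. Wipi1 was at -0.0668 with library totals, -0.0093 with no filter, -0.0568 with the GC offset and -0.0599 with the block added, and ran from -0.0426 to 0.0564 with 1 library left out. Atg14 was at 0.000116 with RLE factors, 0.00796 with upper-quartile factors, 0.0039 with the 1 CPM filter, 0.0029 with limma-voom, 0.0726 with the gene-span offset and 0.0715 with the block added, and ran from -0.0397 to 0.0457 with 1 library left out. Wipi1, Atg14 and Atg4b passed in none of these. The cause was not tested.

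Same-numbered samples correlated at 0.04, 0.004 and -0.008 in their deviations from the group means, and not every sample correlated best with its own number. With 3 samples per group these values cannot settle whether the numbers mark a pairing, and the main test used none. With the replicate block, 8 members were higher and 17 lower, 4536 and 4464 of all genes, and 26 and 29 related genes. With the gene-span offset and block these were 7 and 16 members. Depth limits Atg9b and Atg10 most, and of changes of 1.3-fold 35 of 50 were recovered in the simulated counts.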
